A study of Mus musculus with 9 samples.

Results

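The comparison set the Vcam1 knockout clone KO1 against the Vcam1 knockout clone KO2, the 6 of the 9 libraries of the series whose labels give the genotype KO1 (3 libraries) or KO2 (3 libraries). The remaining 3 libraries are the control cells, labelled WT, and serve here as the reference level. All of the cells are PPTR cells, a mouse intrahepatic cholangiocarcinoma line established from liver tumours that carry Prom1CreERT2 and Rosa-ZsGreen together with floxed alleles. In these tumours the Cre is driven from Prom1, so that the floxed alleles were lost in cells of the Prom1 lineage, and the clones and the control cells share this origin. Each knockout is 1 single-cell clone, made with CRISPR/Cas9 and a guide in exon 2 of Vcam1, an adhesion molecule for leukocyte integrins. The 3 libraries of a condition were collected from different passages of cells kept in serum-containing medium without further treatment. The p values therefore measure the spread between passages within a condition, estimated over the 3 conditions together, control cells included. With 1 clone per knockout, a difference between the clones cannot be told apart from differences that the founder cells already carried.

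When an epithelial tumour cell takes a mesenchymal form, it gives up keratins and cell junctions and takes on matrix, cytoskeletal and motility genes. The mesenchymal family is broad and includes fibroblasts, smooth muscle, fat, cartilage and bone cells, each with its own transcription factors. Wnt ligands, bone morphogenetic proteins (BMP) and their secreted inhibitors are among the signals that cells of this family use to hold such states.

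Library totals lay between 59343234 and 93961714 estimated counts in the clones, and the control libraries between 53415907 and 125223073. Levels are given as CPM, counts scaled to a common library size with TMM factors, in the order replicate 1, 2 and 3. Every log2 difference is KO1 minus KO2 with its SE, and adjusted p values are those of the quasi-likelihood test of edgeR after adjustment by the Benjamini-Hochberg method. Both clones carried mesenchymal genes. Vim, an intermediate filament of mesenchymal cells, was at 3585, 3925 and 2378 CPM in KO1 and 2939.7, 3179.6 and 3531 CPM in KO2, a log2 difference of 0.04 ± 0.19 (adjusted p = 0.9). Of the 11 core mesenchymal markers tested, 4 were higher in KO1, 1 was higher in KO2 and 6 did not pass, and only the call of Col3a1 held each time 1 of the 9 libraries was left out. Krt19, the keratin of bile duct cells, was between 0.016 and 0.226 CPM in the 6 clone libraries and at 2129, 2341 and 2406 CPM in the control cells. The hepatocyte factor Hnf4a had no count in any clone library. The leukocyte gene Ptprc did not exceed 0.0685 CPM and the endothelial gene Cdh5 did not exceed 0.198 CPM in the clones. Summed over the haematopoietic list the level was 11.01 to 12.98 CPM in KO1 and 9.61 to 12.2 CPM in KO2. The endothelial list summed to 7.98 to 9.39 CPM and 4.59 to 5.23 CPM respectively.

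Vcam1 transcript was at 98.8, 92.4 and 128 CPM in KO1, 119, 99.4 and 82.96 CPM in KO2 and 248, 221 and 329 CPM in the control cells. The clones overlapped, and their log2 difference of 0.09 ± 0.20 did not pass (adjusted p = 0.75) and was -0.07 without KO1 replicate 3. These counts cover the whole transcript, so they do not check the edit in exon 2. KO1 replicate 3 stood apart from the other libraries of its clone. The root-mean-square log2 difference over genes was 0.48 between KO1 replicates 1 and 2, and 0.79 and 0.83 between them and replicate 3. It was 0.51 between KO2 replicates 1 and 2, and 0.71 and 0.62 between them and KO2 replicate 3. Among control libraries it was 0.57 to 0.78, and between KO1 and KO2 libraries it was 1.27 to 1.65. The counts over all genes are also given without KO1 replicate 3, as are the printed differences that this library moves by more than 1.5-fold.

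Of 17672 genes tested, 3568 (20.2%) were higher in KO1 and 3266 (18.5%) were higher in KO2 at an adjusted p under 0.05. The difference was at least 2-fold for 2149 and 1553 of them. Without KO1 replicate 3, 3038 genes (16.5% of 18372 tested) were higher in KO1 and 2973 (16.2%) in KO2. A total of 5550 genes passed in both fits, all in the same direction, while 1284 passed only with KO1 replicate 3. The median log2 difference over all tested genes was 0.04. Counts of called members in the lists below are to be read against the shares of 20.2% and 18.5% over all tested genes. A list near or under these shares does not stand out by its count. Calls of 2144 genes higher in KO1 and 2239 higher in KO2 held each time 1 of the 9 libraries was left out, and the genes named below with a test that passed are from this set unless stated otherwise. Among the genes with the largest differences, many had 0 to 3 counts per library in one clone, while others, such as Car3, Eno1b and Wnt7b, were low but detected there.

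**Figure D1:**
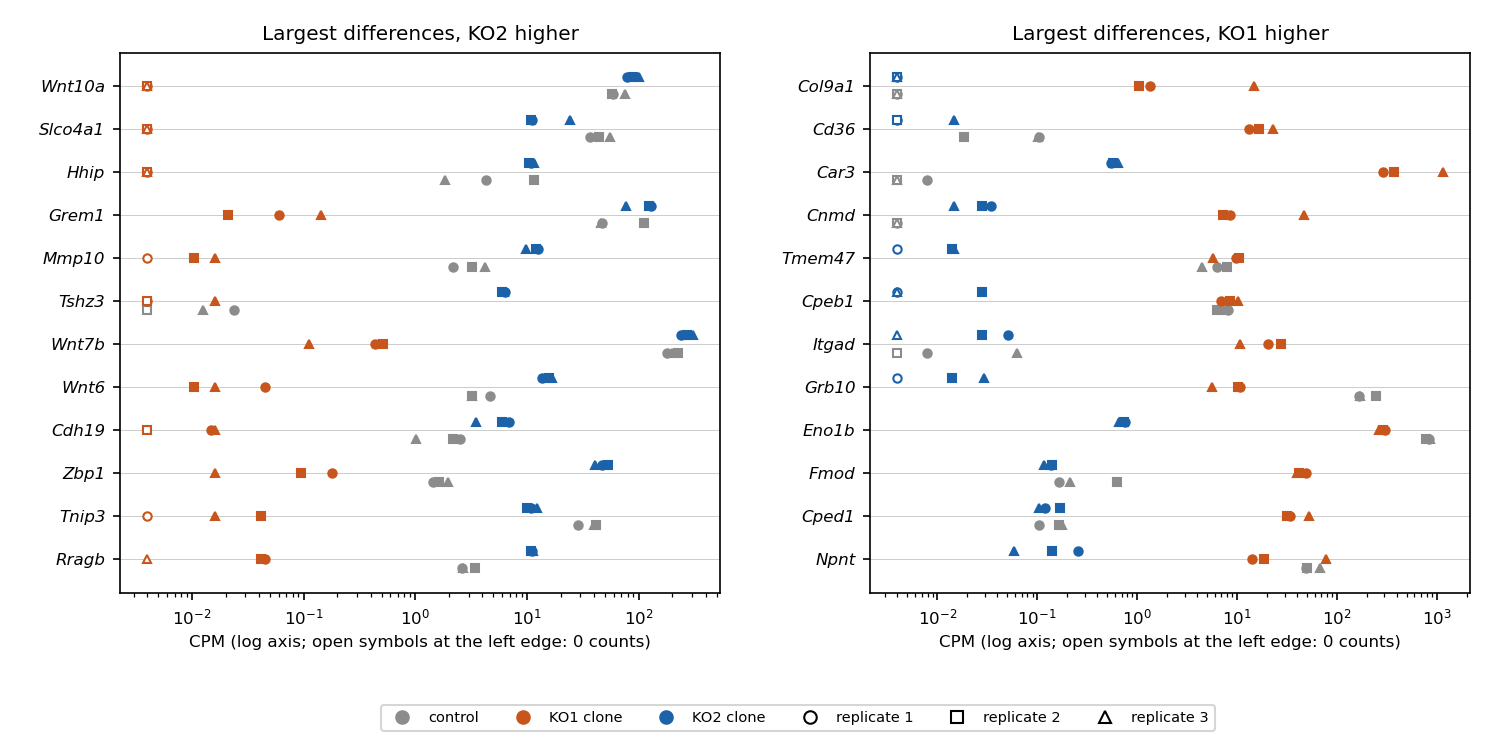
Levels of the 12 genes with the largest difference in each direction, in CPM on a log axis; each point is 1 library, and open symbols at the left edge mark 0 counts. In every row the KO1 libraries (orange) and the KO2 libraries (blue) are separate, for example 78.96, 88.9 and 100.3 CPM of Wnt10a in KO2 against 0 in KO1, while the control libraries (grey) lie near one clone, between the clones or, as for Grb10, Eno1b and Tnip3, above both.

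Wnt10a (chr1:74791516-74804179), a ligand of the canonical Wnt pathway, led the genes higher in KO2. It had no count in the 3 KO1 libraries, 78.96, 88.9 and 100.3 CPM in KO2 and 59.2, 58.1 and 75.9 CPM in the control cells. KO2 was thus at least 2161-fold higher when KO1 was set at the detection limit of 3 counts in each library. Its neighbour Wnt6 (chr1:74771892-74785322), another ligand, was at 0.0449, 0.0104 and 0.016 CPM in KO1 and 13.7, 15.6 and 16.9 CPM in KO2, a ratio of 699 (95% counting interval 299 to 2154), against 4.66, 3.23 and 3.25 CPM in the control cells. Without KO1 replicate 1 the ratio of Wnt6 was 1229. Both genes were thus near or at 0 in every KO1 library and above the control level in every KO2 library. Wnt7b, a further ligand, was at 0.434, 0.511 and 0.112 CPM in KO1, 242, 272 and 306 CPM in KO2 and 181, 227 and 199 CPM in the control cells (log2 difference -9.54 ± 0.42, adjusted p = 1.2e-06).

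Slco4a1, an organic anion transporter, had no count in KO1, 11.2, 10.9 and 24.1 CPM in KO2 and 36.7, 44.02 and 55.4 CPM in the control cells, at least 372-fold higher in KO2. Hhip, which binds Hedgehog ligands and limits their signal, had no count in KO1 and 10.8, 10.5 and 11.7 CPM in KO2, at least 266-fold higher. The control libraries held 4.31, 11.6 and 1.83 CPM of Hhip, on the side of KO2. Mmp10 (stromelysin-2, a matrix protease) was at 0, 0.0104 and 0.016 CPM in KO1 and 12.6, 12.2 and 9.88 CPM in KO2, a ratio of 1296 (95% counting interval 358 to 10712). Tshz3, a zinc finger transcription factor, was at 0, 0 and 0.016 CPM in KO1, 6.39, 5.94 and 6.197 CPM in KO2 and 0.0239, 0 and 0.0126 CPM in the control cells, a ratio of 1388 (95% counting interval 249 to 54873) between the clones. Without KO1 replicate 2 the ratio of Tshz3 was 798, and without KO1 replicate 3 its KO1 count was 0. Tshz3 was thus near 0 in the control cells as in KO1, whereas Slco4a1 and Hhip were detected in every control library.

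Zbp1, a sensor of left-handed nucleic acids in the interferon response, was at 0.18, 0.0939 and 0.016 CPM in KO1, 47.3, 53.1 and 40.7 CPM in KO2 and 1.43, 1.64 and 1.99 CPM in the control cells (log2 difference -8.89 ± 0.45, adjusted p = 2.8e-06). Tnip3, an inhibitor of NF-kB signalling, was at 0, 0.0417 and 0.016 CPM in KO1 and 10.8, 9.95 and 12.2 CPM in KO2 (log2 difference -8.87 ± 0.42, adjusted p = 1.7e-06). Cdh19, a cadherin of Schwann cell precursors, was at 0.015, 0 and 0.016 CPM in KO1 and 6.91, 5.97 and 3.52 CPM in KO2, a ratio of 609 (95% counting interval 168 to 5033). Leaving out 1 library moved the log2 difference of Zbp1 to -9.58 (without KO1 replicate 1) and that of Tnip3 to -10.19 (without KO1 replicate 2), and the ratio of Cdh19 to 349.8 (without KO1 replicate 2). In these 3 genes no KO1 library reached the lowest KO2 library. Rragb, a GTPase that tells mTORC1 of amino acids and is encoded on the X chromosome, was at 0.0449, 0.0417 and 0 CPM in KO1, 11.2, 10.8 and 11.2 CPM in KO2 and 2.63, 3.396 and 2.69 CPM in the control cells (log2 difference -8.42 ± 0.45, adjusted p = 3.3e-06).

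The genes that led on the KO1 side included cartilage, fat and matrix genes. Col9a1, a chain of cartilage collagen IX, had no count in KO2 or in the control cells and 1.36, 1.04 and 14.7 CPM in KO1, at least 124-fold higher. KO1 replicate 3 carried most of this level, and without it the bound was 26.1-fold. Cnmd (chondromodulin, a cartilage glycoprotein) was at 8.49, 7.24 and 46.8 CPM in KO1 and 0.0343, 0.0283 and 0.0148 CPM in KO2, a ratio of 733 (95% counting interval 314 to 2257), and again KO1 replicate 3 was the highest, with a ratio of 305 without it. Cd36, a fatty acid transporter, was at 13.3, 16.6 and 22.99 CPM in KO1, 0, 0 and 0.0148 CPM in KO2 and 0.104, 0.0185 and 0.101 CPM in the control cells, a ratio of 3418 (95% counting interval 613 to 135048) between the clones. This ratio rests on 1 count in KO2 replicate 3, and it was 2189 without KO2 replicate 2. Car3, a carbonic anhydrase abundant in fat and muscle, was at 293, 372 and 1150.3 CPM in KO1 and 0.548, 0.58 and 0.651 CPM in KO2 (log2 difference 9.99 ± 0.65, adjusted p = 9.1e-06, and 9.13 without KO1 replicate 3). Its control level was 0.00797, 0 and 0 CPM, so that KO1 alone held Car3 at a high level.

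Fmod (fibromodulin), a proteoglycan that binds collagen fibrils, was at 49.2, 41.6 and 39.6 CPM in KO1, 0.137, 0.141 and 0.118 CPM in KO2 and 0.167, 0.627 and 0.215 CPM in the control cells (log2 difference 8.34 ± 0.49, adjusted p = 5.4e-06). Npnt (nephronectin), a matrix ligand of integrins, was at 14.1, 18.5 and 78.9 CPM in KO1 and 0.257, 0.141 and 0.0592 CPM in KO2 (log2 difference 7.95 ± 0.85, adjusted p = 0.00016, and 6.76 without KO1 replicate 3). Cped1 was at 34.004, 31.7 and 53.2 CPM in KO1 and 0.12, 0.17 and 0.104 CPM in KO2 (log2 difference 8.21 ± 0.34, adjusted p = 1e-06). Fmod varied little between passages, whereas Npnt in KO1 replicate 3 lay well above the other KO1 libraries. Itgad, an integrin subunit known from leukocytes whose complexes can bind Vcam1, was at 20.6, 27.5 and 10.8 CPM in KO1 and 0.0514, 0.0283 and 0 CPM in KO2, a ratio of 818 (95% counting interval 350.5 to 2522). The ratio was 1439 without KO2 replicate 1 and 537 without KO2 replicate 3.

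Tmem47, a junction protein encoded on the X chromosome, was at 9.85, 10.4 and 5.73 CPM in KO1, 0, 0.0141 and 0.0148 CPM in KO2 and 6.29, 8.03 and 4.45 CPM in the control cells, a ratio of 879 (95% counting interval 243 to 7261) between the clones. Cpeb1, which controls the poly(A) tail of messenger RNAs, was at 6.93, 8.45 and 10.2 CPM, 0, 0.0283 and 0 CPM and 8.21, 6.31 and 7.4998 CPM in the same order, a ratio of 835 (95% counting interval 231 to 6897). Grb10, an imprinted adaptor of the insulin receptor, was at 10.8, 10.3 and 5.603 CPM, 0, 0.0141 and 0.0296 CPM and 167, 247 and 169.8 CPM, a ratio of 599 (95% counting interval 205 to 2907). The ratio of Grb10 was 1179 without KO2 replicate 3, and that of Cpeb1 was 548 without KO2 replicate 3 and had no KO2 count without KO2 replicate 2. For Tmem47 and Cpeb1 the KO1 level was close to that of the control cells and KO2 had at most 2 counts in a library, while Grb10 was below the control cells in both clones. Eno1b was at 304, 293 and 266 CPM in KO1 and 0.754, 0.749 and 0.666 CPM in KO2 (log2 difference 8.63 ± 0.15, adjusted p = 5.8e-09), but it is a near copy of the enolase gene Eno1, and how reads were divided between the pair is uncertain.

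A total of 56 genes were on in one clone and off in the other, with at least 1 CPM in every library of the one and at most 3 counts in every library of the other. Of these, 19 were on in KO1 only and 37 in KO2 only. Without KO1 replicate 3 the counts were 21 and 37. In the control cells, 6 of the 19 genes were on, 4 were off and 9 lay between. Of the 37 genes on in KO2, 21 were also on in the control cells, 5 were off and 11 lay between. Promoter DNA of 4 of these genes is shown because they passed from a clear level to 0 to 3 counts per library between clones of 1 line. They are the genes of highest level in each direction with a promoter in the RefSeq table (GRCm38.p6), which matched 44 of the 56 genes. Wnt10a and Itgad were not among those matched. Each sequence runs from 250 bases before to 50 bases after a gene start of RefSeq, 5′ to 3′ on the gene's strand, with CpG dinucleotides in capitals. For Cd36 this start lies 52905 bases inside the gene as GENCODE vM21 draws it, so the sequence belongs to another start site than the outermost one, and for Slco4a1 the first of 2 listed starts is shown.
Cnmd (chr14:79662134-79662433, minus strand): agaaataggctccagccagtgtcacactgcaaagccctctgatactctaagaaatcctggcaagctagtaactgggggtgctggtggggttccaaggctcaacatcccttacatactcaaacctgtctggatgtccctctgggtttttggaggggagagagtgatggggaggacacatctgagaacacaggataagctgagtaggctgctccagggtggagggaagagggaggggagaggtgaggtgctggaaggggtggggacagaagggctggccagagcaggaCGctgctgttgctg
Cd36 (chr5:17835847-17836146, minus strand): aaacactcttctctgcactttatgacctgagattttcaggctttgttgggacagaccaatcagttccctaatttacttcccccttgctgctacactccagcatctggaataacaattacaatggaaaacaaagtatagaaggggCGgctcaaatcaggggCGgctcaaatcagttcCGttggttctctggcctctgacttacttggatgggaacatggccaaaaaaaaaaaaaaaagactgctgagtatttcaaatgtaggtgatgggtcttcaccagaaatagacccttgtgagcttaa
Wnt6 (chr1:74771642-74771941, plus strand): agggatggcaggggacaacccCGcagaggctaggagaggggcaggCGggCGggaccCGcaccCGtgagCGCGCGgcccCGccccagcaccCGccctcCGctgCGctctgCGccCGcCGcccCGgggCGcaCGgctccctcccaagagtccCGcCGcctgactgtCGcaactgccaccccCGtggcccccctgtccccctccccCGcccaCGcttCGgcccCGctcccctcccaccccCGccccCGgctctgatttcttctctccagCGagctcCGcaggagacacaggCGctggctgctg
Slco4a1 (chr2:180455995-180456294, plus strand): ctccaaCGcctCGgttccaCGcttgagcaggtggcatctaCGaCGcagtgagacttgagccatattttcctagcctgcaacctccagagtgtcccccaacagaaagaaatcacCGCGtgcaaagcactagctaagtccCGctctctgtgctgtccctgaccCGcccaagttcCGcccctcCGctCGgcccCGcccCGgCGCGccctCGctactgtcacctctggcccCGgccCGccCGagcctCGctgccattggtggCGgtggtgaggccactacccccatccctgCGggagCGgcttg
The promoters of Cnmd and Cd36, both off in KO2, held 1 and 3 CpG, and 94.2% and 76.2% of all promoters of this length held at least as many. Wnt6 and Slco4a1, both off in KO1, held 31 and 24 CpG, a content met by 10.3% and 20% of promoters. The median promoter held 7. These 4 do not stand for their groups, since the 16 promoters of genes on in KO1 held 0 to 48 CpG (median 12.5) and the 28 of genes on in KO2 held 0 to 49 (median 5). DNA methylation was not measured, and its part in these differences was not tested.

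Genes of the Wnt pathway split by role. In this pathway, secreted Wnt ligands bind frizzled and Lrp receptors at the cell surface, R-spondins add to the signal through Lgr receptors, and beta-catenin with Tcf factors then turns on target genes, several of which feed back to limit the signal. Of the 42 pathway genes tested, 14 were higher in KO1 and 18 in KO2, with a median log2 difference of -0.25. The roles below were assigned after the values were seen. Of 11 ligands and R-spondins tested, 0 were higher in KO1 and 7 were higher in KO2, namely Wnt10a, Wnt7b, Wnt6, Rspo3, Wnt4, Wnt10b and Wnt5a. Of 15 receptors and co-receptors, 9 were higher in KO1 and 3 (Lgr6, Fzd6 and Ryk) in KO2. Of 7 feedback inhibitors, 0 were higher in KO1 and 6 were higher in KO2. The counts without KO1 replicate 3 were 0 and 7 for ligands, 9 and 4 for receptors, and 0 and 7 for feedback inhibitors.

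**Figure D2:**
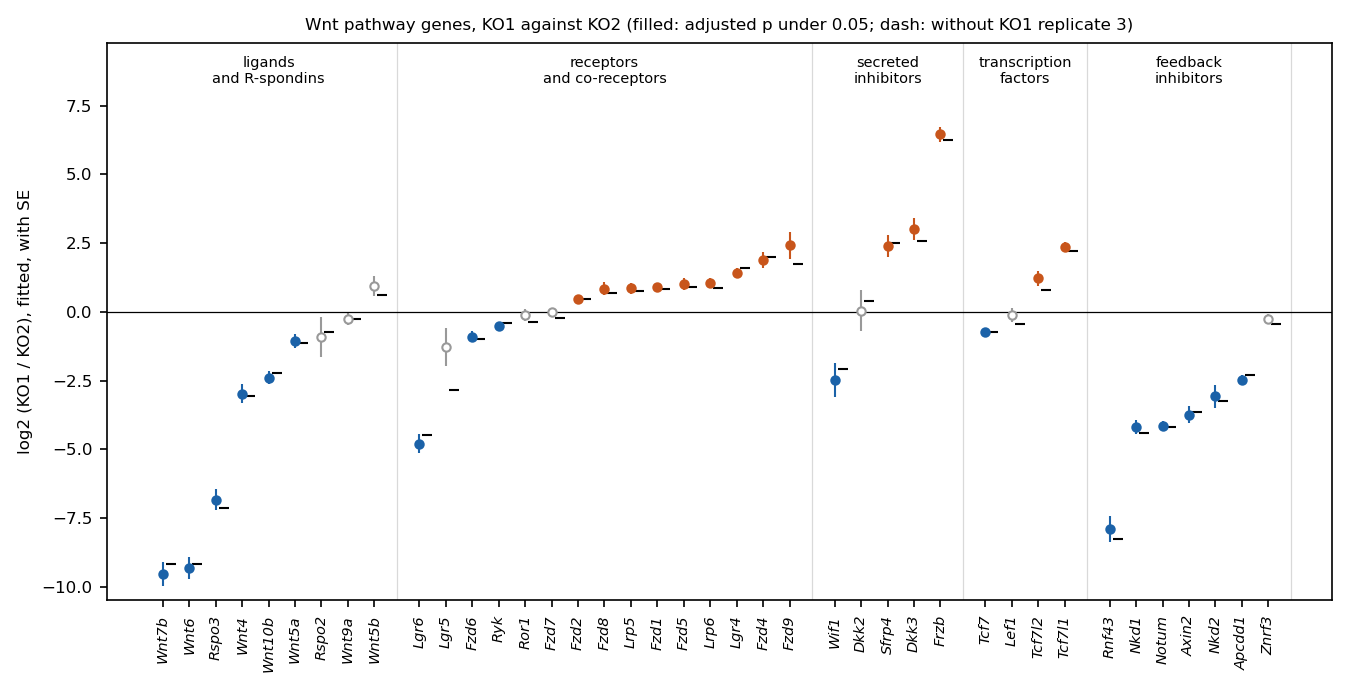
Fitted log2 difference, KO1 minus KO2, of Wnt pathway genes by role, with SE; filled points passed the test, open points did not, and dashes give the value without KO1 replicate 3. Genes at 0 in every library of a clone are left out. Ligands that passed run from Wnt7b at -9.54 to Wnt5a at -1.05, all on the KO2 side, while receptors on the KO1 side reach 2.42 (1.76 without KO1 replicate 3) for Fzd9 and the secreted inhibitor Frzb reaches 6.46.

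Among the ligands not yet described, Rspo3, an R-spondin, was at 0.0449, 0.073 and 0.112 CPM in KO1 and 8.29, 7.61 and 10.6 CPM in KO2 (log2 difference -6.83 ± 0.37, adjusted p = 3.7e-06). Wnt4 was at 1.45, 0.95 and 1.42 CPM and 9.73, 9.76 and 10.5 CPM (log2 difference -2.97 ± 0.34, adjusted p = 0.0002), and Wnt10b was at 3.29, 2.77 and 2.11 CPM and 13.7, 11.4 and 17.9 CPM (log2 difference -2.396 ± 0.24, adjusted p = 0.00011). These 3 genes did not overlap between the clones. The control cells held 0.12, 0.148 and 0.0759 CPM of Rspo3 and 0.0876, 0.111 and 0.114 CPM of Wnt10b, so that KO2 was above the control level for both. Wnt5a, a ligand known mainly for signalling without beta-catenin, was at 38.5, 36.7 and 45.03 CPM in KO1 and 87.4, 87.1 and 74.4 CPM in KO2 (log2 difference -1.05 ± 0.25, adjusted p = 0.0091).

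Feedback inhibitors are transcribed in answer to Wnt signals in many tissues. Axin2, a scaffold that helps degrade beta-catenin, was at 0.674, 0.668 and 0.559 CPM in KO1, 5.997, 6.901 and 12.6 CPM in KO2 and 0.948, 0.867 and 0.986 CPM in the control cells (log2 difference -3.74 ± 0.32, adjusted p = 4.2e-05). Notum, which removes the lipid of Wnt ligands, was at 2.396, 2.54 and 2.67 CPM, 38.4, 40.9 and 56.8 CPM and 6.79, 6.11 and 7.22 CPM in the same order (log2 difference -4.16 ± 0.19, adjusted p = 1.3e-06). Rnf43, a ubiquitin ligase that removes frizzled receptors from the surface, was at 0.015, 0.115 and 0.144 CPM, 25.2, 22.6 and 20.03 CPM and 5.89, 5.13 and 8.297 CPM (log2 difference -7.91 ± 0.47, adjusted p = 5.9e-06). For these 3 genes KO1 lay below and KO2 above every control library. Nkd1 (log2 difference -4.19 ± 0.26, adjusted p = 8.3e-06), Nkd2 (log2 difference -3.08 ± 0.43, adjusted p = 0.00067) and Apcdd1 (log2 difference -2.48 ± 0.19, adjusted p = 1.9e-05), which act on dishevelled or on the receptors, were also higher in KO2. Sp5, a zinc finger factor known as a direct Wnt target and picked here after its values were seen, was at 0.015, 0.0209 and 0.016 CPM in KO1 and 1.44, 1.91 and 2.04 CPM in KO2, a ratio of 102 (95% counting interval 39.6 to 377).

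Lgr6, a receptor for R-spondins, was at 2.38, 3.42 and 1.17 CPM in KO1 and 69.5, 69.7 and 56.1 CPM in KO2 (log2 difference -4.797 ± 0.36, adjusted p = 1.9e-05), whereas its relative Lgr4 was at 60.1, 59.5 and 40.8 CPM and 21.8, 20.2 and 18.1 CPM (log2 difference 1.42 ± 0.18, adjusted p = 0.00038). The 2 Lgr genes thus differed in opposite directions. Frizzled receptors higher in KO1 included Fzd4 (log2 difference 1.89 ± 0.29, adjusted p = 0.0011), Fzd5 (log2 difference 1.01 ± 0.21, adjusted p = 0.0046) and Fzd1 (log2 difference 0.90 ± 0.12, adjusted p = 0.00046), together with the co-receptors Lrp5 (log2 difference 0.85 ± 0.20, adjusted p = 0.0082) and Lrp6 (log2 difference 1.07 ± 0.18, adjusted p = 0.0016). Of 5 secreted inhibitors, 3 (Frzb, Dkk3 and Sfrp4) were higher in KO1 and 1 (Wif1) in KO2. Frzb, a cartilage protein that binds Wnt ligands outside the cell, was at 14.9, 12.8 and 19.7 CPM in KO1, 0.188, 0.184 and 0.163 CPM in KO2 and 0.0319, 0.0554 and 0.0379 CPM in the control cells (log2 difference 6.46 ± 0.27, adjusted p = 1e-06). Of the 4 Tcf and Lef factors, Tcf7l1, known mainly as a repressor, was at 79.7, 71.98 and 102 CPM in KO1 and 16.9, 17.1 and 15.4 CPM in KO2 (log2 difference 2.36 ± 0.19, adjusted p = 2.9e-05), while Tcf7 was at 23.8, 20.6 and 21.5 CPM and 36.8, 36.4 and 37.3 CPM (log2 difference -0.75 ± 0.11, adjusted p = 0.00071).

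In the TGF-beta and BMP list 13 of 44 tested genes were higher in KO1 and 10 were higher in KO2 (median 0.22). Grem1, a secreted BMP antagonist of intestinal and tumour stroma, was at 0.0599, 0.0209 and 0.144 CPM in KO1, 129, 125 and 77.7 CPM in KO2 and 47.4, 112 and 46.1 CPM in the control cells (log2 difference -10.64 ± 0.64, adjusted p = 6.3e-06). Bmp2, a ligand, was at 0.689, 0.918 and 1.56 CPM in KO1 and 37.05, 32.2 and 23.6 CPM in KO2 (log2 difference -4.88 ± 0.35, adjusted p = 1.6e-05), and the control level of 13.3, 8.42 and 9.99 CPM lay between the clones. Without KO1 replicate 3 the log2 difference of Grem1 was -11.48. KO2 thus held more of both a BMP ligand and a BMP antagonist. On the KO1 side, the BMP antagonist Chrdl1 was at 176, 177 and 175 CPM against 46.4, 46.9 and 27.7 CPM in KO2 (log2 difference 2.12 ± 0.28, adjusted p = 0.00044). Tgfb2, a TGF-beta ligand, was at 171, 167 and 385 CPM in KO1 and 103, 93.2 and 66.2 CPM in KO2 (log2 difference 1.46 ± 0.32, adjusted p = 0.0063), and Id3, a target of BMP signals, was at 166, 171 and 302 CPM and 60.7, 76.8 and 106 CPM (log2 difference 1.39 ± 0.32, adjusted p = 0.0078). Tgfb2 and Id3 were highest in KO1 replicate 3, and without it their log2 differences were 0.95 and 1.05 and still passed.

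Of 12 Hedgehog genes, 4 were higher in KO1 and 2 in KO2, and 1 and 2 without KO1 replicate 3. None of the 4 KO1 calls held each time a library was left out, whereas those of Hhip and Gli2 did. Gli2, a transcription factor of the pathway, was at 0.18, 0.0209 and 0.0479 CPM in KO1 and 2.296, 2.305 and 2.29 CPM in KO2 (log2 difference -4.83 ± 0.59, adjusted p = 0.00032, and -6.12 without KO1 replicate 1), the same direction as Hhip above. Of 15 Notch genes, 6 were higher in KO1 and 3 (Notch3, Notch4 and the ligand Dll1) in KO2. The receptor Notch3 was at 23.1, 19.7 and 18.5 CPM in KO1 and 79.8, 75.8 and 66.3 CPM in KO2 (log2 difference -1.85 ± 0.16, adjusted p = 3.9e-05), and the receptor Notch2 was at 224, 206 and 349 CPM and 128, 115 and 104 CPM (log2 difference 1.17 ± 0.22, adjusted p = 0.0029). The 2 receptors thus went in opposite directions, and Heyl, a Notch target, went with Notch2 (log2 difference 2.52 ± 0.37, adjusted p = 0.00085).

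The clones also differed in genes of other mesenchymal lineages. Of 15 adipocyte genes tested, 12 were higher in KO1 and 0 in KO2 (median log2 difference 2.41, and 2.51 with the counts 12 and 0 without KO1 replicate 3). Pparg, the master regulator of fat cell formation, was at 80.1, 92.6 and 69.9 CPM in KO1, 16.2, 17.3 and 12.1 CPM in KO2 and 7.57, 7.09 and 9.54 CPM in the control cells (log2 difference 2.41 ± 0.18, adjusted p = 2.2e-05). Plin4, a protein of lipid droplets, was at 397, 410.2 and 501 CPM, 12.8, 13.1 and 8.505 CPM and 0.0319, 0.0554 and 0.164 CPM in the same order (log2 difference 5.25 ± 0.32, adjusted p = 7e-06). Zfp423, a factor that commits cells to the fat lineage, was at 69.999, 59.9 and 88.5 CPM in KO1 and 15.9, 15.1 and 11.6 CPM in KO2 (log2 difference 2.36 ± 0.20, adjusted p = 4.6e-05). All 3 genes were several times higher in every KO1 library than in any KO2 library, and Plin4 and Zfp423 were near 0 in the control cells. Adipoq, the fat cell hormone, was at 3.97, 3.798 and 27.8 CPM in KO1 and 0.171, 0.255 and 0.133 CPM in KO2 (log2 difference 5.97 ± 0.93, adjusted p = 0.0012), with KO1 replicate 3 above the rest and a log2 difference of 4.36 without it.

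Of 14 smooth muscle genes tested, 10 were higher in KO1 and 0 in KO2 (median 1.20, and 1.32 without KO1 replicate 3). Myl9, a myosin light chain of smooth muscle, was at 29.8, 38.97 and 17.1 CPM in KO1, 0.223, 0.396 and 0.281 CPM in KO2 and 0.0239, 0.0554 and 0 CPM in the control cells (log2 difference 6.56 ± 0.48, adjusted p = 1.7e-05). Cald1 (caldesmon) was at 984, 1038 and 1063 CPM in KO1 and 442, 444 and 351 CPM in KO2 (log2 difference 1.32 ± 0.16, adjusted p = 0.00027), and the myosin kinase Mylk was at 108, 109.8 and 326 CPM and 28.8, 29.3 and 26.6 CPM (log2 difference 2.68 ± 0.42, adjusted p = 0.0012). Within KO1, Myl9 was lowest and Mylk highest in replicate 3, and neither overlapped with KO2. The log2 difference of Mylk was 1.95 without that library. Tagln (SM22), an actin-binding protein of smooth muscle, was at 2.47, 3.06 and 0.399 CPM in KO1 and 0.188, 0.255 and 0.311 CPM in KO2 (log2 difference 2.97 ± 0.71, adjusted p = 0.0099), and calponin (Cnn1) was at 1.71, 2.16 and 1.92 CPM and 0.257, 0.184 and 0.192 CPM (log2 difference 3.19 ± 0.49, adjusted p = 0.0011).

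Of 16 cartilage and bone genes tested, 8 were higher in KO1 and 1 was higher in KO2 (median 3.01). The median without KO1 replicate 3 was 1.99, with 8 and 2 genes. Comp, a cartilage matrix protein, was at 5.21, 4.38 and 17.2 CPM in KO1 and 0.206, 0.24 and 0.237 CPM in KO2 (log2 difference 5.28 ± 0.63, adjusted p = 0.00028), and Sost, a bone cell inhibitor of Wnt signals, was at 1.21, 1.47 and 4.87 CPM and 0.12, 0.0848 and 0.0887 CPM (log2 difference 4.67 ± 0.77, adjusted p = 0.0016). Both were highest in KO1 replicate 3, and without it their log2 differences were 4.38 and 3.77 and still passed. Most genes of the list that passed were low, and at a mean of at least 1 CPM 4 of them were called higher in KO1. Runx2 and Sox9, the regulators of bone and cartilage, did not pass (log2 differences 0.39 ± 0.19 and 0.45 ± 0.37). Alpl, the phosphatase of mineralizing cells, was at 0.15, 0.0835 and 0.0638 CPM in KO1 and 1.696, 2.35 and 3.37 CPM in KO2 (log2 difference -4.63 ± 0.39, adjusted p = 3.7e-05).

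**Figure D3:**
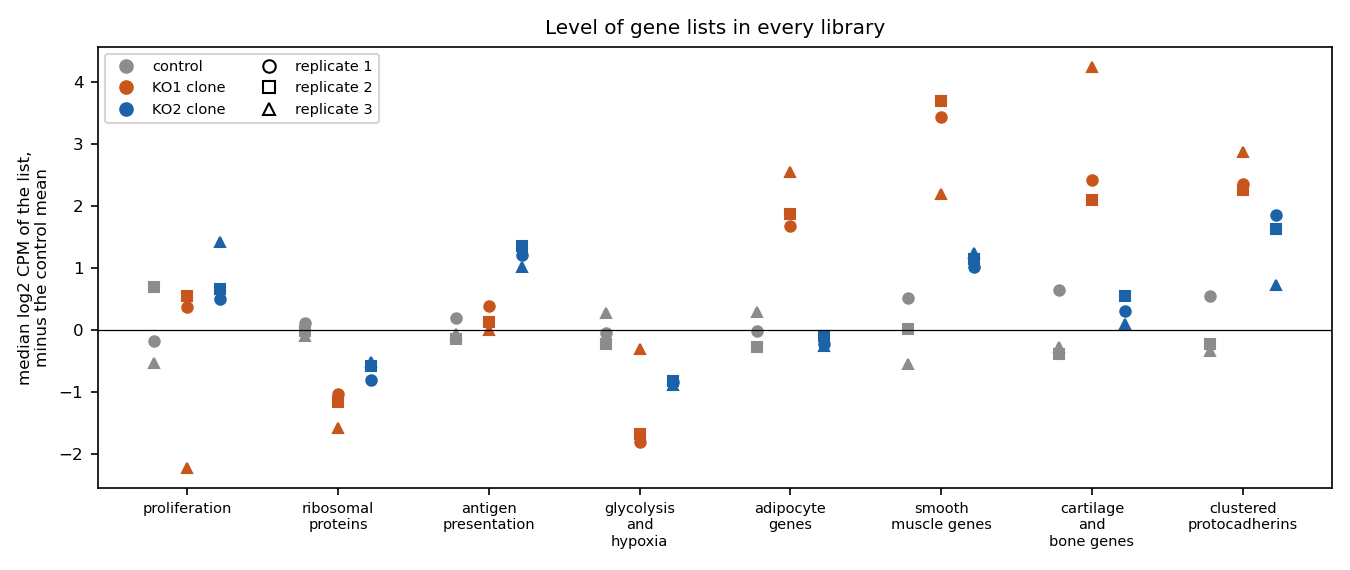
Median log2 CPM of 8 gene lists in every library, minus the mean of the control libraries; each point is 1 library. For adipocyte genes the KO1 libraries sat at 1.68, 1.87 and 2.56 and the KO2 libraries at -0.23, -0.10 and -0.25, while for proliferation genes KO1 replicate 3 sat at -2.22 against 0.37 and 0.56 for the other KO1 libraries.

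Of 49 transcription factors of mesenchymal lineages, 14 were higher in KO1 and 11 in KO2. Ebf1, a factor of fat and stromal cells, was at 181, 160.3 and 274 CPM in KO1 and 55.9, 50.8 and 35.5 CPM in KO2 (log2 difference 2.11 ± 0.30, adjusted p = 0.00065), and Mef2c, a muscle and cartilage factor, was at 30.7, 32.3 and 46.4 CPM and 7.01, 6.36 and 4.42 CPM (log2 difference 2.62 ± 0.28, adjusted p = 0.00015). Tbx18, a factor of the epicardium and of mural cells, was at 0.0749, 0.0626 and 0.112 CPM in KO1, 14.4, 11.1 and 9.18 CPM in KO2 and 0.0558, 0.0185 and 0 CPM in the control cells (log2 difference -7.13 ± 0.52, adjusted p = 1.7e-05). Wt1, a factor of the mesothelium, was at 0.255, 0.125 and 0.303 CPM and 8.72, 8.82 and 10.7 CPM (log2 difference -5.39 ± 0.48, adjusted p = 5.4e-05). Snai2, a repressor of epithelial genes, was at 32.5, 25.1 and 15.6 CPM in KO1 and 7.92, 8.13 and 6.46 CPM in KO2 (log2 difference 1.702 ± 0.37, adjusted p = 0.0065), while the epithelial cadherin Cdh1 was at 1.41, 0.991 and 1.61 CPM in KO1 and 0.703, 0.636 and 0.237 CPM in KO2 against 466, 424 and 709 CPM in the control cells. Of 18 Hox genes tested, 7 were higher in KO1 and 1 (Hoxb13) in KO2. Hoxb13 was near 0 in both clones, with no count in KO1 and 0.103, 0.0424 and 0.0444 CPM in KO2. The control cells held 30.8, 28.99 and 39.9 CPM of it. The 7 genes, Hoxa3, Hoxa5, Hoxa6, Hoxa7, Hoxa9 and Hoxa10 among them, were all of the HoxA cluster on chromosome 6, where the median over all genes was also higher in KO1 (0.34). Hoxa10 was at 12.7, 10.9 and 11.4 CPM in KO1 and 2.02, 2.404 and 2.62 CPM in KO2 (log2 difference 2.31 ± 0.19, adjusted p = 2.9e-05), and Hoxa3 was at 17.04, 14.3 and 21.7 CPM and 3.82, 4.36 and 6.43 CPM (log2 difference 1.86 ± 0.32, adjusted p = 0.0021).

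In the extracellular matrix, 15 of 37 collagen genes were higher in KO1 and 7 in KO2 (median 0.60). The counts were 14 and 9 of 39 tested without KO1 replicate 3 (median 0.61). Col3a1, a fibrillar collagen of soft tissue, was at 1527, 1138 and 2361 CPM in KO1, 318, 330.4 and 359 CPM in KO2 and 33.7, 50.4 and 18.4 CPM in the control cells (log2 difference 2.32 ± 0.37, adjusted p = 0.0013). Col12a1, which sits on collagen fibrils, was at 958, 1082 and 1252 CPM in KO1 and 531, 499 and 305 CPM in KO2 (log2 difference 1.302 ± 0.21, adjusted p = 0.0013). Col7a1, the collagen of anchoring fibrils, was at 7.65, 9.29 and 8.76 CPM and 96.9, 81.4 and 82.9 CPM (log2 difference -3.34 ± 0.17, adjusted p = 2.9e-06), and Col5a3 was at 28.8, 30.6 and 7.17 CPM and 154, 167 and 167 CPM (log2 difference -2.87 ± 0.46, adjusted p = 0.0014). Col3a1 and Col12a1 were thus higher in KO1, and Col7a1 and Col5a3 in KO2. Of 18 proteoglycans, 9 were higher in KO1 and 4 (Dcn, Sdc2, Gpc1 and Gpc4) in KO2. Ogn (osteoglycin) was at 418, 420.3 and 618 CPM in KO1 and 128, 113 and 42.6 CPM in KO2 (log2 difference 2.36 ± 0.53, adjusted p = 0.0075), and Dcn (decorin) was at 2.16, 2.51 and 8.35 CPM and 111, 113 and 51.7 CPM (log2 difference -4.41 ± 0.58, adjusted p = 0.00048, and -5.29 without KO1 replicate 3). These 2 small leucine-rich proteoglycans differed in opposite directions, and Dcn in KO2 overlapped its control level of 60.2, 105 and 58.3 CPM.

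Of 38 matrix proteases and inhibitors tested, 14 were higher in KO1 and 14 in KO2. The counts were 10 and 15 without KO1 replicate 3, and the median log2 difference moved from 0.08 to -0.07. Mmp9, the gelatinase, was at 11.3, 6.302 and 7.42 CPM in KO1, 399, 393 and 337 CPM in KO2 and 583, 398 and 417 CPM in the control cells (log2 difference -5.497 ± 0.27, adjusted p = 2.4e-06), and Mmp3 (stromelysin-1) was at 0.824, 0.386 and 0.192 CPM, 13.8, 14.6 and 17.1 CPM and 216, 194 and 162 CPM (log2 difference -5.02 ± 0.38, adjusted p = 2.1e-05, and -5.69 without KO1 replicate 1). Mmp14, a membrane-bound protease, was at 1092, 993 and 1844 CPM in KO1 and 519.8, 531 and 400.1 CPM in KO2 (log2 difference 1.44 ± 0.26, adjusted p = 0.0023), and Adamts2, which trims procollagen, was at 325, 269 and 589 CPM and 174, 179 and 125 CPM (log2 difference 1.31 ± 0.32, adjusted p = 0.01). Mmp3, Mmp9 and Mmp10 were thus higher in KO2, and Mmp14 and Adamts2 in KO1.

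Of 23 integrin genes tested, 5 (Itga1, Itga8, Itgad, Itgb5 and Itgb8) were higher in KO1 and 8 in KO2. Itgb7, a beta subunit whose complex with Itga4 binds Vcam1, was at 0.479, 0.386 and 0.575 CPM in KO1, 63.2, 64.9 and 53.5 CPM in KO2 and 4.21, 4.503 and 4.68 CPM in the control cells (log2 difference -6.99 ± 0.19, adjusted p = 2e-07). Itga6, a laminin receptor subunit, was at 27.3, 23.1 and 28.4 CPM, 150.1, 152 and 152 CPM and 295, 301 and 325 CPM in the same order (log2 difference -2.53 ± 0.11, adjusted p = 1.2e-06). Itgb5, a subunit of a vitronectin receptor, was at 529.6, 518 and 715 CPM in KO1 and 285, 296 and 189 CPM in KO2 (log2 difference 1.19 ± 0.20, adjusted p = 0.0017). The 3 subunits did not overlap between the clones, and KO2 lay above the control cells for Itgb7 and below them for Itga6. Of 22 adhesion molecules of the immunoglobulin family, 2 (L1cam and Mcam) were higher in KO1 and 7 in KO2. L1cam was at 206, 240.2 and 151 CPM in KO1 and 82.2, 76.6 and 48.6 CPM in KO2 (log2 difference 1.52 ± 0.26, adjusted p = 0.0019), and Cd47, the signal that spares cells from phagocytes, was at 71.5, 65.2 and 48.6 CPM and 147, 141 and 124 CPM (log2 difference -1.15 ± 0.15, adjusted p = 0.00042). Of 16 cadherins, 4 were higher in KO1 and 3 (Cdh6, Cdh15 and Cdh19) in KO2. N-cadherin (Cdh2), a cadherin of mesenchymal cells, was at 117, 119.9 and 101 CPM in KO1 and 51.03, 51.4 and 57.5 CPM in KO2 (log2 difference 1.08 ± 0.10, adjusted p = 8.9e-05).

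Clustered protocadherins, the cell surface proteins that give neurons an identity, had 25 of 40 tested genes higher in KO1 and 3 in KO2 (median 1.62). Calls of 22 and 1 of them held each time a library was left out. Without KO1 replicate 3 the counts were 22 and 1, and the median was 1.51. Pcdhgc3 was at 1224, 1170.1 and 1987 CPM in KO1, 756, 792 and 627 CPM in KO2 and 191, 133 and 157 CPM in the control cells (log2 difference 1.01 ± 0.23, adjusted p = 0.007). Pcdhgb6 was at 71.8, 75.97 and 109 CPM, 30.2, 30.3 and 16.8 CPM and 6.15, 4.87 and 5.43 CPM (log2 difference 1.73 ± 0.25, adjusted p = 0.00074), and Pcdhb9 was at 6.54, 6.46 and 13.2 CPM, 0.48, 0.269 and 0.177 CPM and 0.0956, 0 and 0.126 CPM (log2 difference 4.83 ± 0.62, adjusted p = 0.00042). For all 3 genes every KO1 library lay above every KO2 library, and the control libraries were the lowest. Pcdhgc5, whose exon lies last in its cluster, was at 10.6, 12.01 and 14.8 CPM in KO1 and 37.7, 38.3 and 30.9 CPM in KO2 (log2 difference -1.52 ± 0.16, adjusted p = 0.00017), opposite to Pcdhgc3 of the same cluster. Members of a cluster share exons or are close copies, so that counts of single members are uncertain.

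Among 27 imprinted genes tested, 11 were higher in KO1 and 2 in KO2 (median 0.74, and 0.65 with genes at 0 in one clone set at their bound). Snrpn, a splicing protein gene of the Prader-Willi region, was at 28.97, 28.8 and 34.9 CPM in KO1, 3.96, 3.95 and 3.58 CPM in KO2 and 14.2, 10.2 and 14.8 CPM in the control cells (log2 difference 3.01 ± 0.18, adjusted p = 5.9e-06). Cdkn1c, a cell cycle inhibitor, was at 2.43, 1.61 and 1.04 CPM, 0.0514, 0.0141 and 0.0887 CPM and 2.996, 1.48 and 2.82 CPM in the same order (log2 difference 5.01 ± 0.60, adjusted p = 0.00028, and 5.65 without KO2 replicate 3). H19, a noncoding RNA, was at 5.72, 0.209 and 0.479 CPM in KO1 and 0.0171, 0 and 0 CPM in KO2, a ratio of 377 (95% counting interval 67.3 to 14932), with most of the KO1 level in replicate 1. Its ratio ranged from 62.1 without that library to 626 without KO1 replicate 2, and without KO2 replicate 1 there was no KO2 count. Snrpn and Cdkn1c were low in KO2 relative to both KO1 and the control cells. Of 27 genes for DNA methylation and Polycomb enzymes, 2 were higher in KO1 and 3 in KO2, and the calls of Tet1, Dnmt3l and Phf19 held each time a library was left out. Tet1, which oxidizes methylated cytosine, was at 5.32, 3.53 and 4.93 CPM in KO1 and 1.83, 1.37 and 1.67 CPM in KO2 (log2 difference 1.497 ± 0.33, adjusted p = 0.0067).

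Several further lists held members on both sides. Of 32 matricellular and elastic fibre genes, 9 were higher in KO1 and 7 in KO2. Ccn2 (connective tissue growth factor) was at 639, 593 and 484 CPM in KO1 and 241, 229 and 109 CPM in KO2 (log2 difference 1.57 ± 0.29, adjusted p = 0.003), and Ccn5, a relative, was at 285, 341 and 156 CPM and 727, 779 and 679.9 CPM (log2 difference -1.48 ± 0.28, adjusted p = 0.0032). These 2 members of the Ccn family differed in opposite directions. Of 11 laminin chains, 2 were higher in KO1 and 4 in KO2, and the calls of Lama1, Lamb3 and Lamc3 in KO2 held each time a library was left out. Of 33 epithelial genes, 8 were higher in KO1 and 7 in KO2. The desmosome genes Pkp1 and Pkp3 were higher in KO2, with Pkp1 at 0, 0.0626 and 0.016 CPM in KO1, 8.28, 9.46 and 6.26 CPM in KO2 and 15.3, 14.4 and 20.1 CPM in the control cells (log2 difference -7.97 ± 0.52, adjusted p = 9.1e-06, and -9.73 without KO1 replicate 2). Perp, another desmosome gene, was at 6.09, 7.97 and 3.22 CPM in KO1 and 0.343, 0.325 and 0.222 CPM in KO2 (log2 difference 4.28 ± 0.35, adjusted p = 3.5e-05), and Ehf, an epithelial transcription factor, was at 16.2, 11.5 and 20.05 CPM and 6.94, 6.55 and 6.43 CPM (log2 difference 1.26 ± 0.28, adjusted p = 0.0068). Of 15 skeletal muscle genes, 5 were higher in KO1 and 1 (Myh1) in KO2.

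Of 15 stellate cell and fibroblast markers, 5 were higher in KO1 and 4 (Hgf, Dcn, Pi16 and Ly6a) in KO2, and on the KO1 side the calls of Cygb and Dpt held each time a library was left out. The counts were 3 and 4 without KO1 replicate 3, and the median log2 difference moved from -0.14 to -0.74. Ly6a, a surface protein of stem cells and fibroblasts, was at 102, 92.9 and 31.9 CPM in KO1, 559, 600.3 and 511 CPM in KO2 and 143, 145 and 222 CPM in the control cells (log2 difference -2.88 ± 0.39, adjusted p = 0.00057). Of 9 neural and Schwann cell genes, 4 were higher in KO1 and 3 in KO2. Summed over this list the level was 27.6 to 40.7 CPM in KO1 and 152 to 159 CPM in KO2. Of 6 germline genes, 5 were higher in KO1 and 1 in KO2, and the calls of Sycp2 and Tdrd9 held each time a library was left out. These were trace levels, since 0 of the 6 genes averaged 1 CPM over the clone libraries. Among the 63 germline genes of the list, 52 had at most 3 counts in every clone library. Of 20 genes of the YAP and TEAD list, 4 were higher in KO1 and 4 (Tead4, Wwtr1, Foxf2 and Nt5e) in KO2. Of 13 carbonic anhydrases, 8 were higher in KO1 and 3 (Car12, Car5b and Car6) in KO2. Of marker genes of hepatocytes, bile ducts, blood and endothelium, in this order, 2 of 8, 1 of 10, 2 of 7 and 1 of 5 tested were higher in KO1 and 0 in KO2, against 20.2% of all tested genes higher in KO1.

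**Figure D4:**
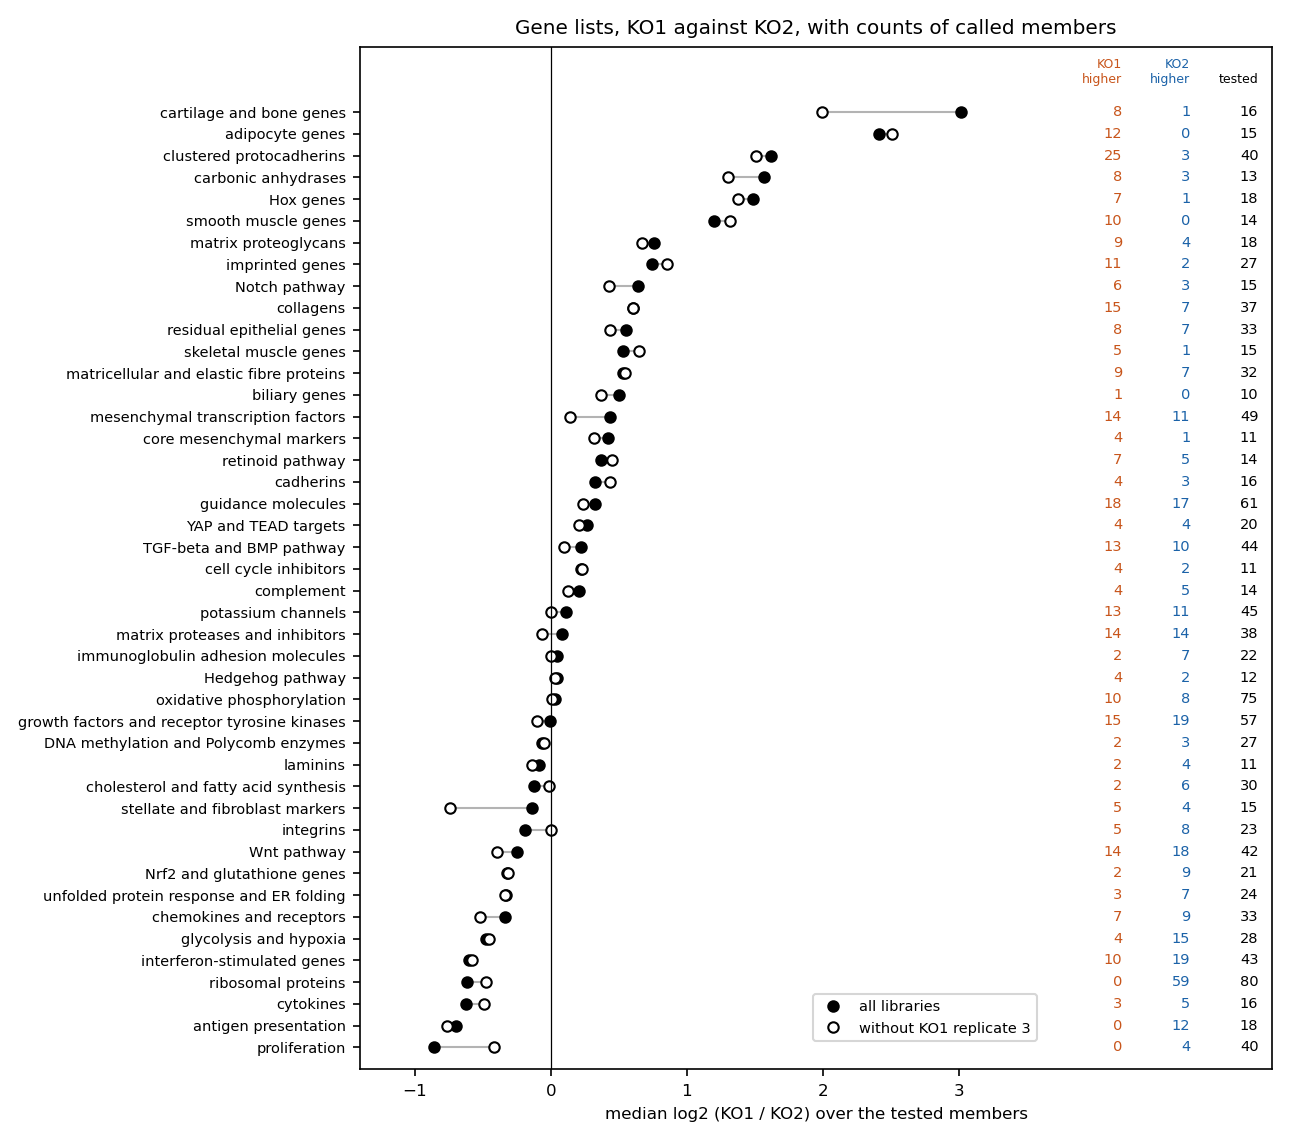
Median log2 difference, KO1 minus KO2, over the tested members of each list with at least 10 tested members, with all libraries (filled) and without KO1 replicate 3 (open), beside the counts of members called higher in each clone. The medians run from 3.01 for cartilage and bone genes to -0.86 for proliferation genes, against 0.04 over all tested genes.

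Of 18 antigen presentation genes tested, 0 were higher in KO1 and 12 in KO2 (median -0.69), and the counts were the same without KO1 replicate 3. Calls of 9 of them held each time a library was left out. Psmb8, a subunit of the immunoproteasome, was at 76.4, 61.9 and 48.7 CPM in KO1, 209, 238 and 236 CPM in KO2 and 48.01, 34.97 and 37.1 CPM in the control cells (log2 difference -1.87 ± 0.18, adjusted p = 9.2e-05). The peptide transporter gene Tap1 was at 37.7, 33.9 and 32.6 CPM in KO1, 57.9, 63.3 and 62.4 CPM in KO2 and at most 38.9 CPM in the control cells (log2 difference -0.82 ± 0.15, adjusted p = 0.0024). Psmb8 and Tap1 were higher in every KO2 library than in any other library. H2-Q4, a class I gene, was at 1.59, 2.02 and 1.44 CPM in KO1 and 25.4, 25.9 and 19.3 CPM in KO2 (log2 difference -3.800 ± 0.28, adjusted p = 1.8e-05), although its near copies make the count uncertain. The classical class I gene H2-K1 was at 67.5, 65.1 and 98.01 CPM in KO1, 132, 134 and 66.1 CPM in KO2 and 368, 279 and 307 CPM in the control cells, and the difference between the clones did not pass (adjusted p = 0.15) unless KO2 replicate 3 was left out (log2 difference -0.83).

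Of 43 interferon-stimulated genes, 10 were higher in KO1 and 19 in KO2 (median -0.60). Without KO1 replicate 3 the counts were 6 and 17. Besides Zbp1, the GTPases Ifi47 (log2 difference -1.23 ± 0.18, adjusted p = 0.00074) and Gbp2 (log2 difference -1.99 ± 0.22, adjusted p = 0.00019) were higher in KO2. Ifi47 was at 37.8, 33.5 and 28.6 CPM in KO1 and 85.4, 87.8 and 60.4 CPM in KO2. Ifit3, an inhibitor of viral translation, was at 42.8, 34.2 and 50.8 CPM in KO1 and 17.9, 18.4 and 17.04 CPM in KO2 (log2 difference 1.26 ± 0.30, adjusted p = 0.0091).

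Of 33 genes of chemokines and their receptors, 7 were higher in KO1 and 9 in KO2. Cxcl12, which holds and attracts leukocytes through Cxcr4, was at 1288, 1307 and 1580.5 CPM in KO1, 115, 114 and 83.4 CPM in KO2 and 0.295, 0.185 and 0.0759 CPM in the control cells (log2 difference 3.74 ± 0.29, adjusted p = 2.6e-05). Ccl2, which attracts monocytes, was at 89.2, 197 and 126 CPM, 1631, 1347 and 782 CPM and 429.6, 83.9 and 357 CPM in the same order (log2 difference -3.19 ± 0.58, adjusted p = 0.0026), and its neighbour Ccl7 was at 48.02, 86.5 and 25.7 CPM, 449.9, 378 and 288 CPM and 14.4, 5.703 and 10.5 CPM (log2 difference -2.799 ± 0.46, adjusted p = 0.0015). Cxcl12 was above the control cells in both clones and highest in KO1, whereas Ccl2 and Ccl7 were highest in KO2. Of 16 cytokines, 3 were higher in KO1 and 5 in KO2, and the calls of Il6 in KO1 and of Il33, Il34, Tslp and Csf2 in KO2 held each time a library was left out. Il33, an alarmin, was at 22.2, 17.7 and 6.19 CPM in KO1 and 174, 181 and 269.7 CPM in KO2 (log2 difference -3.76 ± 0.46, adjusted p = 0.00032), and Il34, a ligand of Csf1r, was at 13.9, 16.5 and 12.2 CPM and 51.7, 58.9 and 47.95 CPM (log2 difference -1.89 ± 0.18, adjusted p = 6.8e-05). Of 14 complement genes, 4 were higher in KO1 and 5 in KO2, and 2 and 5 without KO1 replicate 3. Calls that held each time a library was left out included Cfi and Cd59a in KO1 and Cfb and Serping1 in KO2.

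Growth factors and receptor tyrosine kinases numbered 15 higher in KO1 and 19 higher in KO2 of 57 tested. Gas6, the ligand of Axl, was at 1088, 1024 and 1550.4 CPM in KO1, 189.9, 207 and 173 CPM in KO2 and 249, 109 and 429 CPM in the control cells (log2 difference 2.68 ± 0.42, adjusted p = 0.0012). Fgfr2, a fibroblast growth factor receptor, was at 115, 120.5 and 249 CPM, 17.6, 16.5 and 13.1 CPM and 18.98, 8.47 and 28.8 CPM (log2 difference 3.36 ± 0.46, adjusted p = 0.00057). Areg (amphiregulin), a ligand of the epidermal growth factor receptor, was at 0.0749, 0.24 and 0.016 CPM, 14.7, 15.03 and 13.8 CPM and 351, 607 and 367 CPM (log2 difference -6.85 ± 0.50, adjusted p = 1.7e-05, and -8.24 without KO1 replicate 2). Gas6 and Fgfr2 in KO1 were above the control cells, while Areg was below them in both clones and nearly absent from KO1. Pdgfb, a growth factor for mural cells, was at 2.95, 3.22 and 1.98 CPM in KO1 and 60.3, 53.8 and 39.3 CPM in KO2 (log2 difference -4.23 ± 0.22, adjusted p = 3.1e-06), and Kitl was at 102, 105 and 103 CPM and 222, 194 and 177 CPM (log2 difference -0.94 ± 0.11, adjusted p = 0.0002).

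Among guidance molecules, 18 of 61 were higher in KO1 and 17 in KO2. Nrp2, a receptor of semaphorins and Vegfc, was at 66.2, 70.995 and 77.2 CPM in KO1 and 257, 256 and 204 CPM in KO2 (log2 difference -1.74 ± 0.16, adjusted p = 7e-05), and Ephb6 was at 64.9, 76.1 and 58.96 CPM and 219, 232 and 212 CPM (log2 difference -1.73 ± 0.16, adjusted p = 6.2e-05). They were 3.35-fold and 3.31-fold higher in KO2. Of 14 retinoid genes, 7 were higher in KO1 and 5 (among them Rbp4, Rarg, Cyp26b1 and Stra6) in KO2. Aldh1a1, which makes retinoic acid, was at 23.8, 30.6 and 17.5 CPM in KO1, 0.531, 0.368 and 0.296 CPM in KO2 and 79.6, 51.99 and 119 CPM in the control cells (log2 difference 5.92 ± 0.40, adjusted p = 1.2e-05), while Stra6, the receptor that takes up retinol, was at 0.704, 0.876 and 3.097 CPM, 24.1, 22.3 and 16.6 CPM and 6.46, 9.52 and 7.64 CPM (log2 difference -3.76 ± 0.52, adjusted p = 0.00065, and -4.72 without KO1 replicate 3). Of 45 potassium channel genes, 13 were higher in KO1 and 11 in KO2. Kcnn4, a calcium-activated channel, was at 3.88, 3.52 and 1.12 CPM in KO1, 95.6, 104 and 88.2 CPM in KO2 and 176, 157 and 191 CPM in the control cells (log2 difference -5.07 ± 0.40, adjusted p = 2.5e-05).

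Of 28 glycolysis and hypoxia genes tested, 4 were higher in KO1 and 15 in KO2 (median -0.48), and 2 and 14 without KO1 replicate 3. Calls of Pfkfb3 and Car9 in KO1 and of 10 genes in KO2 held each time a library was left out. Egln3, an oxygen sensor that is itself induced in hypoxia, was at 6.47, 5.05 and 7.45 CPM in KO1, 127, 122 and 138 CPM in KO2 and 131, 118 and 229 CPM in the control cells (log2 difference -4.35 ± 0.28, adjusted p = 8.5e-06). Ldha, which makes lactate, was at 718, 689.6 and 509 CPM, 1311, 1402 and 1639 CPM and 1577, 1808 and 1969 CPM (log2 difference -1.18 ± 0.17, adjusted p = 0.00075), and Pkm, the pyruvate kinase, was at 2309, 2276 and 2308 CPM, 3317, 3578 and 3891 CPM and 3325, 3189 and 3819 CPM (log2 difference -0.65 ± 0.13, adjusted p = 0.0044). In these genes KO1 lay below the control cells and KO2 overlapped them. The difference was 20.4-fold for Egln3, 2.27-fold for Ldha and 1.56-fold for Pkm. Of 75 oxidative phosphorylation genes, 10 were higher in KO1 and 8 in KO2, both below the shares of 20.2% and 18.5% over all tested genes.

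Of 30 genes of cholesterol and fatty acid synthesis, 2 were higher in KO1 and 6 in KO2. Of 21 Nrf2 and glutathione genes, 2 were higher in KO1 and 9 in KO2, and on the KO1 side the call of Hmox1, a heme-degrading enzyme, held each time a library was left out. Slc7a11, the cystine importer, was at 1.36, 1.68 and 0.511 CPM in KO1, 45.2, 40.3 and 8.71 CPM in KO2 and 106, 117 and 128 CPM in the control cells (log2 difference -4.705 ± 0.63, adjusted p = 0.00052). In the list of the unfolded protein response, 3 of 24 genes (the chaperones Calr, Pdia4 and Dnajb11) were higher in KO1 and 7 in KO2. Trib3, a pseudokinase induced by Atf4, was at 4.84, 6.27 and 4.01 CPM in KO1 and 163, 205 and 35.5 CPM in KO2 (log2 difference -4.73 ± 0.61, adjusted p = 0.00042). Slc7a11 and Trib3 were lower in KO2 replicate 3 than in the other KO2 libraries, yet above every KO1 library.

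Of 80 ribosomal protein genes, 0 were higher in KO1 and 59 in KO2 at differences below 2-fold at the median ( -0.61), and 49 without KO1 replicate 3 (median -0.48). Without KO2 replicate 2 the count was 36, and 35 calls held each time a library was left out. Rpl8 was at 867, 838 and 639 CPM in KO1, 1349, 1534 and 1652 CPM in KO2 and 1901, 2048 and 1862 CPM in the control cells (log2 difference -0.95 ± 0.15, adjusted p = 0.0013). Rps4x, encoded on the X chromosome, was at 633, 558 and 350.2 CPM, 1215, 1332 and 1247 CPM and 1213, 1148 and 1198 CPM (log2 difference -1.300 ± 0.20, adjusted p = 0.001). Rpl8 was thus below the control cells in both clones and lowest in KO1, and Rps4x in KO2 lay at or just above the control level. Rps27 passed only through KO2 replicate 1, with 231, 5.32 and 4.54 CPM in KO2 and 5.12, 4.904 and 4.96 CPM in KO1, and its log2 difference was -0.02 without that library. Ribosomal protein genes have many processed copies in the genome, which makes counts of single members uncertain.

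Genes of whole chromosomes differed between the clones. Over 12394 genes that averaged 1 CPM or more and had a single position, the median log2 difference was -0.04. On the X chromosome it was -0.56 over 368 genes, a 1.47-fold higher level in KO2, and -0.53 without KO1 replicate 3. All 8 bins of 10 Mb with at least 20 genes were lower in KO1, between -0.65 and -0.46. Of the X-linked genes 55.4% were called higher in KO2, against 21.8% of all genes in this set. Chromosomes 16 and 6 were higher in KO1, with medians of 0.34 and 0.34 and with 7 of 7 and 12 of 12 bins above 0. Chromosome 15 was lower in KO1 (-0.25) in 7 of 7 bins. These values stood at 0.37, 0.34 and -0.26 without KO1 replicate 3.

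**Figure D5:**
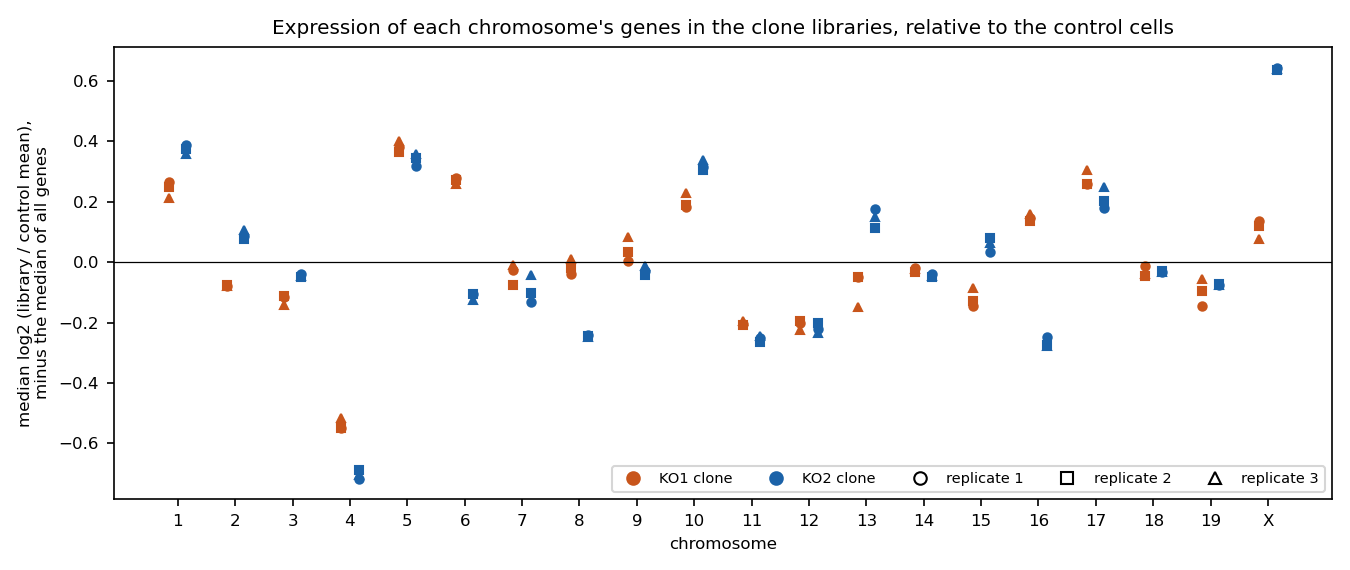
Median log2 ratio of each clone library to the control mean over the genes of each chromosome, minus the median of all genes; each point is 1 library. On the X chromosome the KO2 libraries sat at 0.64 each and the KO1 libraries at 0.08 to 0.14, and on chromosome 4 both clones lay below the control cells.

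Set against the control cells, the 3 KO2 libraries lay at 0.64 each on the X chromosome and the 3 KO1 libraries at 0.08 to 0.14. On chromosome 6 the KO1 libraries lay at 0.26 to 0.28 and the KO2 libraries at -0.13 to -0.11. On chromosome 16 they lay at 0.14 to 0.16 and -0.28 to -0.25. Libraries of a clone, KO1 replicate 3 included, thus sat close together for each of these chromosomes, and the clones stood apart. Xist, the RNA that silences an X chromosome, was at 472, 574 and 631 CPM in KO1, 504, 349 and 416 CPM in KO2 and 243, 208 and 279.7 CPM in the control cells, and the difference between the clones did not pass (adjusted p = 0.1). DNA copy number was not measured, and its part in the chromosome-wide differences was not tested.

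KO1 replicate 3 differed from the other libraries of its clone above all in cell cycle genes. Mki67, a protein of dividing cells, was at 216, 239 and 27.7 CPM in KO1 and 178, 179.6 and 332 CPM in KO2, and the difference did not pass (log2 difference -0.51 ± 0.62, adjusted p = 0.54, and -0.01 without KO1 replicate 3). Ccna2, the cyclin of S and G2 phase, was at 68.6, 75.1 and 7.61 CPM in KO1, and Nuf2, of the kinetochore, was at 55.3, 57.9 and 5.73 CPM. For all 3 genes KO1 replicate 3 was far below replicates 1 and 2, and KO2 replicate 3 was the highest of the KO2 libraries. The immediate early gene Nr4a1 was at 63.9, 131 and 1052 CPM in KO1 and 16.9, 11.02 and 1.46 CPM in KO2, and the collagenase Mmp13 was at 0.509, 0.814 and 21.4 CPM and 32.7, 28.8 and 4.97 CPM. KO1 replicate 3 lay within the KO2 range of Mmp13 and the other KO1 libraries below it, and its log2 difference was -1.56 ± 1.17 with all libraries (adjusted p = 0.32) and -5.03 without KO1 replicate 3 (adjusted p = 0.0018). Among 7941 genes with at least 20 CPM in replicate 3 or in the mean of replicates 1 and 2, 277 were at least 2-fold higher and 273 at least 2-fold lower in replicate 3.

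Of 40 proliferation genes tested, 0 were higher in KO1 and 4 in KO2, and 0 and 5 without KO1 replicate 3, with a median log2 difference of -0.86 and -0.42. Calls of Pcna, E2f1 and Cdt1 held each time a library was left out. E2f1, a transcription factor of S phase entry, was at 33.99, 43.3 and 25.3 CPM in KO1 and 68.97, 73.9 and 93.9 CPM in KO2 (log2 difference -1.21 ± 0.20, adjusted p = 0.0017), and Pcna, the sliding clamp of DNA replication, was at 132, 171 and 78.3 CPM and 247, 268 and 399 CPM (log2 difference -1.26 ± 0.28, adjusted p = 0.007). The clones did not overlap for E2f1 and Pcna. Of 11 cell cycle inhibitors, 4 were higher in KO1 and 2 in KO2. Cdkn2c (p18), which blocks Cdk4 and Cdk6, was at 105, 96.6 and 90.9 CPM in KO1 and 61.4, 68.8 and 76.8 CPM in KO2 (log2 difference 0.50 ± 0.11, adjusted p = 0.0068), while Cdkn1a (p21), a cell cycle inhibitor, was at 117, 121 and 79.98 CPM and 166, 167 and 188 CPM (log2 difference -0.71 ± 0.16, adjusted p = 0.0067). The 2 inhibitors thus differed in opposite directions.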

How the data were processed

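Poly(A) RNA of 9 libraries (3 each of control, KO1 and KO2 cells) was sequenced by the authors with a stranded paired-end protocol. The deposited table holds kallisto (0.46.1) estimated counts per gene, which the authors summed from GENCODE transcripts of mouse build GRCm38, and the deposited values are whole numbers. Gene positions came from a different GENCODE release of the same build. Genes passing the default filter of filterByExpr were fitted with edgeR 4.0.16 (TMM, quasi-likelihood test) with all 9 libraries and 3 groups, and the contrast KO1 minus KO2 was adjusted by Benjamini-Hochberg over all tested genes. The SE is the log2 difference divided by the square root of its F value. CPM values were computed with the effective library sizes. The alternatives were limma-voom (limma 3.58.1), DESeq2 1.42.0, other normalization and filters, the 6 clone libraries alone, a test for a change beyond 2-fold, and each library left out in turn. The edgeR fit was tested on simulated counts for this contrast (17262 genes), where it called 22 of 50 genes changed 2-fold, 46 of 50 changed 4-fold and 13 unchanged genes. Library totals were 53415907 to 125223073, and 3 counts, used as the detection limit in a library, correspond to 0.031 to 0.051 CPM in the clones. Counting intervals are exact binomial at 95% and cover counting error only.

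The clones, the gene lists and the naming rule were chosen with earlier results of these data known. The rule took the 12 largest differences in each direction (called with and without KO1 replicate 3, at least 5 CPM in the higher clone, no overlap, no predicted gene names), in each list up to 4 called members by level and 2 by size of difference (at least 1 CPM), 6 genes in each direction by the difference of KO1 replicate 3 from its clone (at least 20 CPM), and Vcam1, Cdh1, Vim, Mki67, Snai2, Prom1 and the sex-linked genes Xist and Kdm5d, with the on/off genes of highest level for the promoters. All other genes were chosen after their values were seen, among them Axin2, Notum, Rnf43, Rspo3, Wnt4, Wnt10b, Frzb, Sp5, Zfp423, Adipoq, Tagln, Wt1, Col7a1, Mmp3, Mmp9, Tap1, Gbp2, Fgfr2 and Pdgfb. Promoter sequences are those of RefSeq. Results for some genes, and the names of the floxed alleles, are not reported here.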

Additional observations from a re-analysis of the deposited data

Results flagged for a closer look

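For 9 of the leading genes every KO1 library lay on one side of all 3 control libraries and every KO2 library on the other side. KO2 was above and KO1 below the control cells for Wnt10a (fitted log2 difference -15.72), Mmp10 (-10.10), Wnt7b (-9.54), Wnt6 (-9.32), Cdh19 (-9.002), Zbp1 (-8.89) and Rragb (-8.42). KO1 was above and KO2 below for Cd36 (11.35) and Fmod (8.34). For Cd36 the order of KO2 and the control cells is not resolved at this depth. KO2 was at 0, 0 and 0.0148 CPM and the lowest control library at 0.0185 CPM, both under the limit of 3 counts. For Fmod, KO2 at 0.118 to 0.141 CPM lay only just below the lowest control library at 0.167 CPM. The fitted values of Wnt10a, Mmp10, Wnt6, Cdh19 and Cd36 rest on 0 to 3 counts per library in one clone, depend on the prior count and are no bounds. Both clones are set against the same control libraries, so the contrasts of each clone with the control cells are not independent, and that they point opposite ways was not itself tested.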

How the results depend on the processing

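No paired analysis was possible because the replicate numbers only follow the order of the libraries and the passage of each library is not known. The count of genes that differed was 6834 and ranged from 5456 (mean of at least 1 CPM) to 7615 (DESeq2) over the other tools, scalings and filters, with 6688 under limma-voom. Demanding a change beyond 2-fold left 1782 genes, with 930 genes higher in KO1 and 852 genes higher in KO2. Leaving out 1 library gave 4943 (without KO2 replicate 2) to 7408 (without WT replicate 2) genes. At 5 CPM instead of 1 CPM, 6 genes were on in KO1 only and 6 in KO2 only. Chromosome medians that moved by more than the spread between libraries were those of chromosomes 2 (-0.16) and 12 (-0.0085) without KO1 replicate 3, and of chromosomes 3 (-0.16), 10 (-0.23), 13 (-0.30) and 16 (0.29) at a mean of at least 5 CPM. The cause was not tested.

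Among lists, the counts of members higher in KO1 at a mean of at least 1 CPM fell from 25 to 15 for protocadherins, from 8 to 4 for cartilage and bone and from 11 to 7 for imprinted genes, since fewer members were tested. DESeq2 and the fit without a filter called 9 proliferation genes higher in KO2 instead of 4. Log2 differences changed sign for genes that did not pass in any of these fits. With 1 library left out, the gene Vcam1 ranged from -0.0709 (without KO2 replicate 3, and -0.069 without KO1 replicate 3) to 0.18, Sox9 from -0.091 (without KO1 replicate 3) to 0.71, Vim from -0.11 (without KO1 replicate 2) to 0.22, Kdm5d from -0.19 (without KO1 replicate 2) to 0.15, and Rnase1 was -0.86 without KO1 replicate 3. Without a filter on low counts the gene Kdm5d was -0.00828. Genes at 0 to 3 counts in one clone were limited by depth. In the simulation 4 of 50 genes changed 1.5-fold and 22 of 50 changed 2-fold were called. It changed only 50 genes at each fold among 17262, whereas 38.7% of the tested genes were called in the data. The adjustment of p values was therefore stricter in the simulation, and these rates do not give the sensitivity of this comparison.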
